A study of Homo sapiens with 12 samples.

Results

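MALAT1 is a long non-coding RNA that stays in the nucleus, where it gathers in nuclear speckles. Its m6A windows were taken from 4 tables in which the authors compared METTL16 knockout with control cells. Every row carrying the name MALAT1 was used, which gave 29 windows of 296568 in all. The sgMETTL16-1 tables held 10 in replicate 1 and 4 in replicate 2, and the sgMETTL16-2 tables held 10 and 5. The cells were NOMO-1, an established human acute myeloid leukaemia line, and all groups went through lentiviral infection and puromycin selection. The groups were the negative control guide sgNS with the genotype control, and the guides sgMETTL16-1 and sgMETTL16-2 with the genotype METTL16 knockout. Each guide had 2 input and 2 IP libraries of polyadenylated RNA, 12 in all, where IP is immunoprecipitation with an m6A antibody. The labels name no separate cultures or clones for the replicate numbers.

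N6-methyladenosine (m6A) is the most common internal modification of messenger RNA and is placed mostly by the METTL3-METTL14 complex. METTL16 is a separate methyltransferase, best known for methylating U6 small nuclear RNA and hairpins of the MAT2A messenger RNA. MALAT1 enters this picture because its 3′ end folds into a triple helix that protects it from decay and that METTL16 binds. MALAT1 also carries m6A, which can open local hairpins and so let the RNA-binding protein HNRNPC reach its site.

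In GRCh38 the RefSeq gene occupies bases 65497738 to 65506516 of chromosome 11, plus strand, and is 8779 bases long. RefSeq lists 3 transcripts and 2 start sites, the second of them at 65499045, which is 1307 bases inside the gene. All 29 windows were single blocks, and their exons were not annotated here. The sequence around the second start is shown because the domain with a call in every table began there. It covers chr11:65498795-65499094 on the plus strand (RefSeq, GRCh38.p14), read 5′ to 3′. The 74 capitals mark bases from 65499021 onward, where the first window of this domain began in 3 of the 4 tables.

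MALAT1 second start: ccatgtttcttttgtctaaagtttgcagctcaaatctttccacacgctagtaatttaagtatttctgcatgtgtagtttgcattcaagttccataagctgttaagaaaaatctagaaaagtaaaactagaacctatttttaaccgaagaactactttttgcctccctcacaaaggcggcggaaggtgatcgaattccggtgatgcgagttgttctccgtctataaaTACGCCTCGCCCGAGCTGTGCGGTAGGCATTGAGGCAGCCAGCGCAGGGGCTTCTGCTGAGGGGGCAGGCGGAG

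A pair of short words were searched in it, on both strands and with no overlap between them: GGACT, a core m6A consensus, and TACAGAGAA, the sequence METTL16 methylates in U6. Neither was present in these 300 bases, while 44.2% and 0.316% of 35116 RefSeq windows of the same length around gene starts held them. The searched bases end before the stretch called lower in every table (65499650 to 65499770), so the search says nothing about that stretch. The 300 bases around the first annotated start held GGACT on each strand, 1 match apiece, and no TACAGAGAA.

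A window was enriched when the authors' FDR of IP over input was under 0.05. Which libraries gave this value and the fold enrichment, knockout, sgNS or both, is not stated. An enrichment given with a guide is that of the guide's comparison with sgNS. Enrichment of MALAT1 lay in its 5′ and central parts. With sgMETTL16-1, 3 of 10 windows in replicate 1 and 3 of 4 in replicate 2 were enriched, where 8.1% and 11.9% of all windows were. With sgMETTL16-2 the counts were 3 of 10 and 2 of 5, where 10.2% and 12.3% of all windows were. The windows covered 31.9% and 12.3% of the gene with sgMETTL16-1 and 31.5% and 11% with sgMETTL16-2, so replicate 2 listed less of it. Merged over the tables, the 29 windows formed 11 stretches, and 8 of these were not enriched in any table. The remaining stretches were a domain at the second start (65498991 to 65499979), the next domain downstream (65500129 to 65500819) and a central domain (65502736 to 65503126).

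In the domain at the second start, the authors' deposited tables of replicate 1 gave a fold enrichment of 1.72 with sgMETTL16-1 (FDR = 7.94e-51) and 1.77 with sgMETTL16-2 (FDR = 3.98e-52). Both replicate 2 tables split this domain into an upstream window of 180 bases and an inner window of 181 bases with sgMETTL16-1 and 121 with sgMETTL16-2. The upstream window stood at 1.55 with sgMETTL16-1 (FDR = 0.01) and 1.65 with sgMETTL16-2 (FDR = 0.0832, not enriched) in the authors' deposited tables. The inner window stood at 1.37 (FDR = 2.00e-17) and 1.28 (FDR = 3.47e-10) in the same authors' deposited tables. The domain was thus found in all 4 tables, as 1 long block or as 2 short pieces.

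The next domain downstream was enriched in all 4 tables at much the same level. The fold enrichment in the authors' deposited tables was 1.42 and 1.51 with sgMETTL16-1 (FDR = 6.31e-24 and 3.98e-47) and 1.60 and 1.49 with sgMETTL16-2 (FDR = 2.51e-42 and 3.98e-44). The central domain was enriched in both replicate 1 tables, at 1.48 (FDR = 0.00269) and 1.69 (FDR = 2.69e-04) in the authors' deposited tables. For sgMETTL16-1 in replicate 2 it shrank to a window of 91 bases at 1.25 (FDR = 0.678) in the authors' deposited table, and sgMETTL16-2 in replicate 2 had no window there. Downstream of it lay only windows of 61 to 181 bases, at 1.03 to 1.23 in the authors' deposited tables, and none was enriched.

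**Figure D1:**
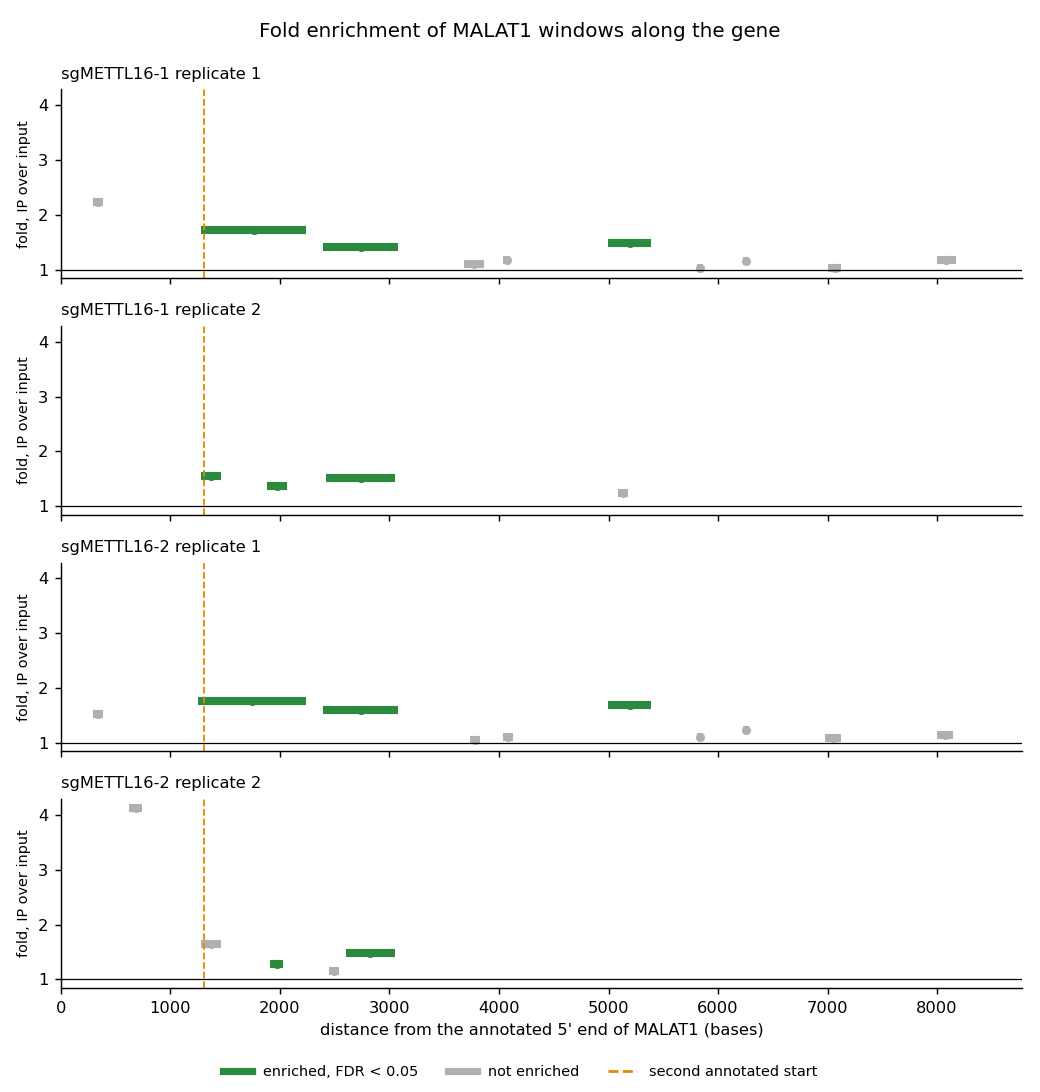
Fold enrichment of IP over input (vertical axis) of each MALAT1 window against its distance in bases from the annotated 5′ end (horizontal axis), 1 panel for each of the authors' deposited tables. Bars span the windows, green bars are enriched (FDR under 0.05), grey bars are not, and the dashed line is the second annotated start at 1307 bases: the first green bar begins beside it in 3 panels and at 1912 bases in replicate 2 of sgMETTL16-2, and none lies downstream of the central domain.

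Windows upstream of the second start did not pass as enriched. One at 65498032 to 65498122 had fold enrichments of 2.23 and 1.52 in the authors' deposited replicate 1 tables, and one at 65498361 to 65498481 had 4.13 in the authors' deposited sgMETTL16-2 table of replicate 2, the highest of all 29. The enrichment FDR was 1 in each of these authors' deposited tables. The first of them had a log2 fold change of exactly -1 in both replicate 1 tables, a value that 2386 and 4664 windows of these authors' deposited tables share together with its p-value.

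Among all enriched windows MALAT1 combined a small fold with a very low FDR. Its domain at the second start ranked 27 of 79372 windows by enrichment FDR with sgMETTL16-1 and 54 of 75788 with sgMETTL16-2, in replicate 1 of the authors' deposited tables. By fold enrichment the same windows were ordinary, since 43.3% and 39.8% of enriched windows had a lower fold in those authors' deposited tables. The inner window of replicate 2 lay lower still, above 8.69% and 4.10% of enriched windows. Reads per window are not given in these tables, and the part of RNA abundance in the rank was not tested.

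**Figure D2:**
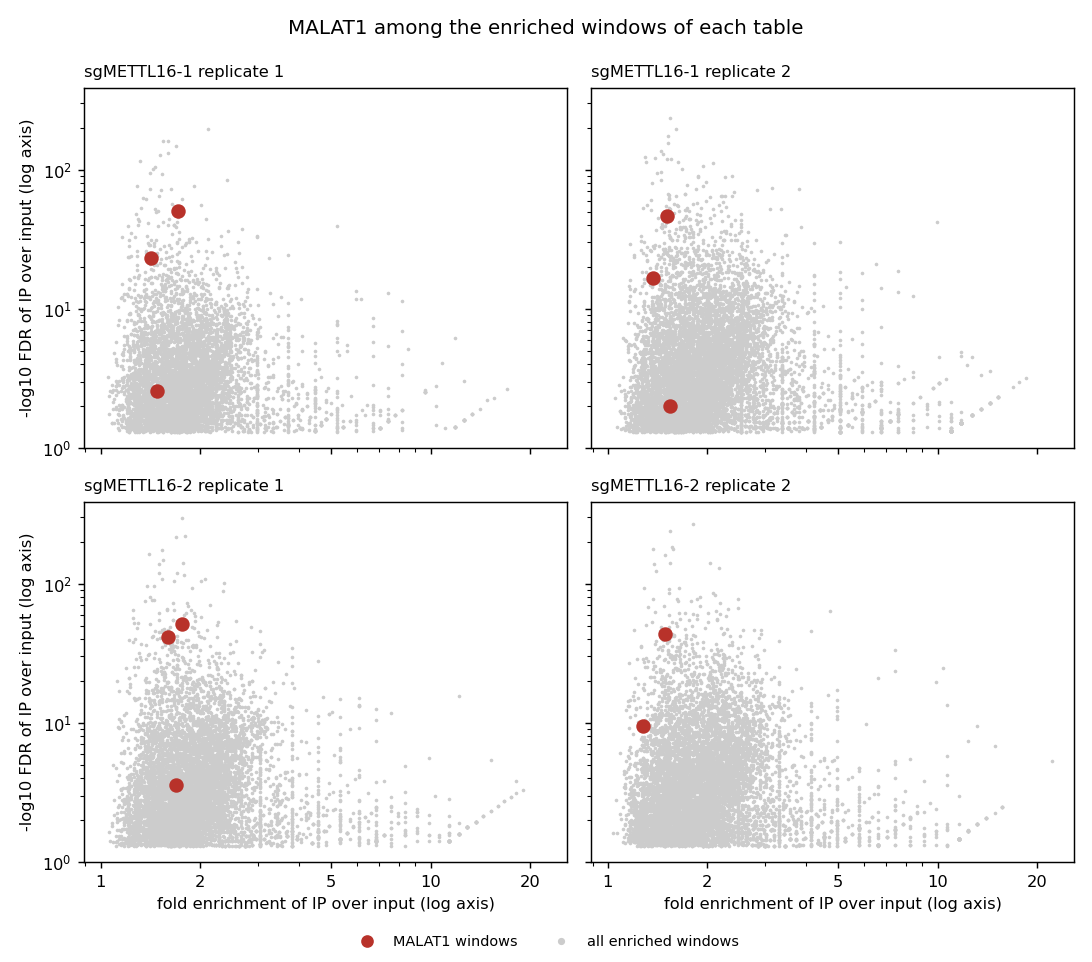
Fold enrichment of IP over input (horizontal, log axis) against -log10 of its FDR (vertical, log axis) for every enriched window, 1 panel for each of the authors' deposited tables, with MALAT1 in red. The MALAT1 windows sit at folds of 1.28 to 1.77, and 1 or 2 per table reach far up the FDR axis; 2 and 1 windows of other genes with an FDR listed as 0 are left out of the replicate 2 panels.

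The comparison of knockout with sgNS was read from the authors' log2 fold change and its FDR. A negative value is taken as less m6A relative to input in the knockout; the tables do not state the direction, and with the opposite convention all signs would turn. A window was called when the FDR of the difference was under 0.05. MALAT1 had 8 windows called lower, 7 of them enriched, and 0 called higher. At an unadjusted p-value under 0.05 there were 12 lower windows, the 8 called ones included, and 0 higher in the authors' deposited tables. The share of all windows at that p-value was not computed, so these counts are not shown to be particular to MALAT1. By table, 2 of 10 and 1 of 4 windows were called lower with sgMETTL16-1, where 0.281% and 0.167% of all windows were. With sgMETTL16-2 it was 4 of 10 and 1 of 5, where 0.965% and 0.149% of all windows were. Higher calls, of which MALAT1 had none, took 0.0743% and 0.583% of all windows with sgMETTL16-1 and 0.875% and 0.586% with sgMETTL16-2. Windows called lower over all genes had median lengths of 382 and 177 bases with sgMETTL16-1 and 301 and 194 with sgMETTL16-2. The median over all windows was 121 bases in each table. The part of window length and read depth in the MALAT1 calls was not tested. Which sgNS libraries entered each table is not stated, so tables of 1 replicate number may share their controls and may not be independent.

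**Figure D3:**
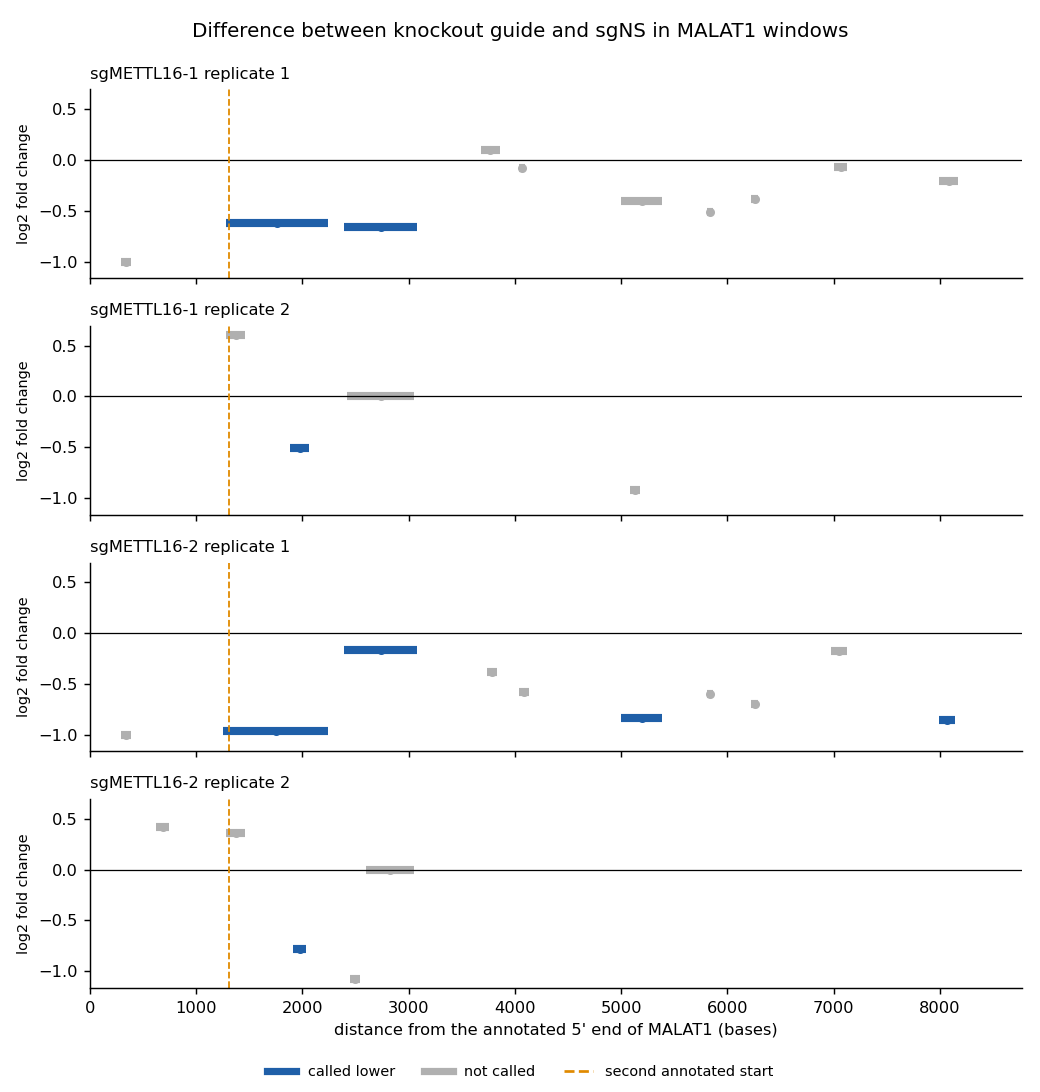
The log2 fold change between knockout guide and sgNS (vertical axis) of each MALAT1 window against its distance in bases from the annotated 5′ end (horizontal axis), 1 panel for each of the authors' deposited tables. Blue bars are called lower (FDR under 0.05) and grey bars are not called; each panel has a blue bar between 1253 and 2241 bases, the replicate 1 panels have another in the next domain, and replicate 1 of sgMETTL16-2 also has them in the central and 3′-most stretches.

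The domain at the second start was the one place with a call in every table. In replicate 1 its whole window was at -0.62 with sgMETTL16-1 (FDR = 3.16e-23) and at -0.97 with sgMETTL16-2 (FDR = 7.94e-39) in the authors' deposited tables. On a linear scale these are 0.649 and 0.511 of the sgNS value. In replicate 2 the inner window was at -0.51 with sgMETTL16-1 (65499620 to 65499800, FDR = 2.69e-05) and at -0.78 with sgMETTL16-2 (65499650 to 65499770, FDR = 1.41e-08) in the authors' deposited tables. These are 0.703 and 0.583 of the sgNS value. The lower values of replicate 1 describe the long window and those of replicate 2 a short part of it, and within each replicate number sgMETTL16-2 was the lower.

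The upstream piece of the same domain, at the second start itself, did not follow in replicate 2. It stood at 0.61 with sgMETTL16-1 (FDR = 0.658) and at 0.35 with sgMETTL16-2 (FDR = 0.650) in the authors' deposited tables, and neither was called. In replicate 1 these 180 bases belong to the long window, so they have no value of their own there. The capitals in the sequence above lie in this piece.

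Because window ends differ between tables, the calls were also compared base by base. A stretch of 121 bases, from 65499650 to 65499770, lay in a window called lower in all 4 tables, and it begins 605 bases downstream of the second start. The stretch is the whole inner window of sgMETTL16-2 in replicate 2, so that window sets its size. In replicate 1 the stretch lies inside windows of 959 and 989 bases and has no value of its own. It was the only such stretch among 843 bases covered in all 4 tables. Of 13639 genes with a window in every table, 8 (0.0587%) had any base called lower in all 4, and 4 (0.0293%) had any base called higher. The other lower ones were B2M, EIF4A1, NEAT1, SENP3-EIF4A1, SRSF11, TPT1 and UPF3B. EIF4A1 and SENP3-EIF4A1 had 91 and 90 such bases, and whether these are the same bases was not checked. Among these genes NEAT1, the nuclear RNA that builds paraspeckles and the neighbour that ends 52197 bases upstream of MALAT1, had 301 such bases. Within replicate 1 alone, both guides called 1650 MALAT1 bases lower, against 121 within replicate 2. Paired as whole windows with an overlap of at least 0.5 on either side, 0 windows were called lower in both tables of sgMETTL16-1 and 0 in both of sgMETTL16-2, since the long and short windows at the second start could not be paired. The 1 pair that each guide had between its tables, in the next domain downstream, was not called in replicate 2.

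The next domain downstream divided by replicate number. In replicate 1 the window from 65500129 to 65500819 was at -0.66 with sgMETTL16-1 (FDR = 5.01e-36), the third lowest FDR of the table, and at -0.17 with sgMETTL16-2 (FDR = 0.0204) in the authors' deposited tables. The second of these calls ended with a two-sided p-value (FDR = 0.0548). In replicate 2 the main window of this domain was at 0.0048 with sgMETTL16-1 (FDR = 0.658) and at -0.0016 with sgMETTL16-2 (FDR = 0.650) in the authors' deposited tables. A short window at its 5′ edge, 65500189 to 65500279, was at -1.08 with sgMETTL16-2 in replicate 2 (FDR = 0.106, not called) in the authors' deposited table. The domain was enriched in all 4 tables and called lower in the replicate 1 tables; the difference between replicate numbers was not tested.

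The central domain, 65502736 to 65503126, was called lower once. In replicate 1 it was at -0.40 with sgMETTL16-1 (FDR = 0.330) and at -0.84 with sgMETTL16-2 (FDR = 0.00155) in the authors' deposited tables. The short window of sgMETTL16-1 in replicate 2 was at -0.92 (FDR = 0.658) in the authors' deposited table. All 3 values were negative, and 1 passed the threshold.

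Towards the 3′ end, where the triple helix lies, the last window began at 65505733. It was at -0.21 with sgMETTL16-1 (FDR = 0.655) and at -0.86 with sgMETTL16-2 (FDR = 0.00229) in the authors' deposited replicate 1 tables. This call is on a window without enrichment, at a fold enrichment of 1.15 (enrichment FDR = 0.339) in the authors' deposited table. The window ended 603 bases before the annotated 3′ end with sgMETTL16-1 and 633 with sgMETTL16-2, and no window of any table lay closer. Coordinates of the triple helix were not used here, so no window was assigned to it.

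The remaining windows, around the central domain, were not called. With sgMETTL16-1 in replicate 1 they were at 0.09, -0.09, -0.52, -0.39 and -0.07 from 5′ to 3′ in the authors' deposited table. With sgMETTL16-2 in replicate 1 the same places were at -0.38, -0.58, -0.60, -0.70 and -0.18 in the authors' deposited table. Both replicate 2 tables list no window in these places.

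**Figure D4:**
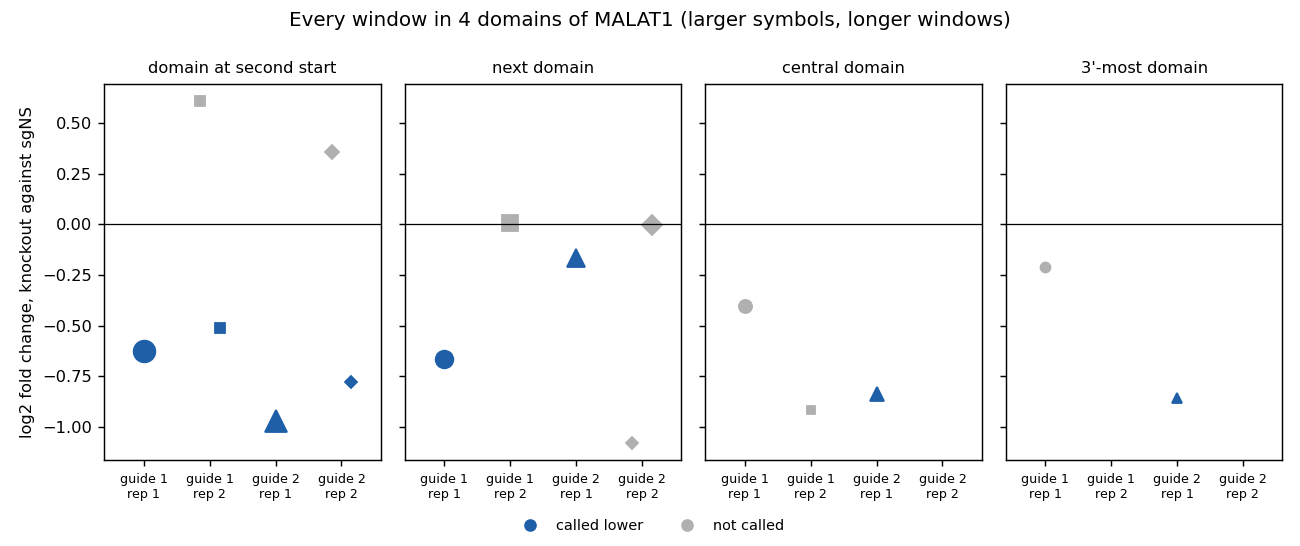
The log2 fold change (vertical axis) of every window in 4 stretches of MALAT1, with the authors' deposited tables side by side (guide 1 is sgMETTL16-1, guide 2 is sgMETTL16-2), blue for called lower and grey for not called, and symbols that grow with window length. At the second start each table has a blue symbol between -0.51 and -0.97 and replicate 2 also has grey symbols above 0; the next domain is blue in replicate 1 alone.

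Between the guides, windows of 1 replicate number could be paired, 10 in replicate 1 and 3 in replicate 2. The value of sgMETTL16-2 was the lower in 8 of the 10 and in all 3. The exceptions were the window with -1 in both, and the next domain downstream, where sgMETTL16-2 was higher by 0.50 in log2. The widest gap in the other direction was at the 3′-most window, where sgMETTL16-2 minus sgMETTL16-1 was -0.65, followed by the window from 65501777 with -0.49. In replicate 2 the pair in the next domain downstream was close to a tie, at 0.0048 with sgMETTL16-1 and -0.0016 with sgMETTL16-2. The share of such pairs over all genes was not computed, so the counts are not shown to be particular to MALAT1. The difference between guides was not tested, since no spread between libraries is given and controls may be shared.

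Over all windows of MALAT1 the median log2 fold change was -0.40 and -0.25 with sgMETTL16-1 and -0.65 and -0.0016 with sgMETTL16-2, in replicate 1 and 2, computed from the authors' deposited tables. The median over all windows of each table was 0.00. In replicate 2 the median depended on the windows counted, since over enriched windows alone it was 0.0048 with sgMETTL16-1 and -0.39 with sgMETTL16-2. In replicate 1, 9 of 10 windows with sgMETTL16-1 and 10 of 10 with sgMETTL16-2 had a negative value, where 46.9% and 48.5% of all windows did. In replicate 2 it was 2 of 4 and 3 of 5, or 50% and 60%, near the 46.5% and 46.1% of all windows. In replicate 2 of sgMETTL16-2 a called window at -0.78 stood beside 2 positive windows that were not called. By bases, 59.0% and 16.7% of the covered part of MALAT1 lay in windows called lower with sgMETTL16-1, and 80.3% and 12.6% with sgMETTL16-2. The share was higher in replicate 1 for both guides.

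Genes with the most similar pattern were sought by the Euclidean distance between the 4 medians per gene, among 4199 genes with at least 5 windows in each table, a minimum that MALAT1 itself misses with its 4 windows in replicate 2 of sgMETTL16-1. The 5 closest were STX7, a syntaxin of endosomes (distance 0.14), NAA16, an auxiliary subunit of N-terminal acetylation (0.15), STAM2, of endosomal sorting (0.15), CFAP97 (0.15) and RAP2B, a small GTPase (0.15). STX7 had medians of -0.28 and -0.24 with sgMETTL16-1 and -0.60 and 0.06 with sgMETTL16-2. None of the 5 had a called lower window in any table, against 8 windows for MALAT1. The 5 genes had 5 to 17 windows each per table, and 0.281%, 0.167%, 0.965% and 0.149% of all windows were called lower. No call among so few windows is near those shares. The likeness is one of medians over 4 tables that may share controls, and calls did not enter it.

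A list of 22 other long non-coding RNAs, most of them nuclear or abundant, had windows on 20, 20, 20 and 19 members in the order of tables used above. CYTOR was found under its older symbol LINC00152, and MEG3 and TALAM1 had no window. TALAM1 is the antisense partner of MALAT1 and overlaps 7205 of its bases; the kit keeps strand, but how the counting treated strand is not given in the sources used here. Lower calls fell on 4, 2, 4 and 2 members and higher calls on 0 in each table. The list had 201, 163, 195 and 175 windows, and 0.0743%, 0.583%, 0.875% and 0.586% of all windows were called higher. With shares so small, 0 higher calls in a table is not read as a result about the list. By window, 1.99% and 1.23% of the list's windows were called lower with sgMETTL16-1 and 3.59% and 1.14% with sgMETTL16-2, beside 0.281%, 0.167%, 0.965% and 0.149% of all windows. The list's median of gene medians was -0.26, 0.00, -0.46 and -0.19, against 0.00 over all genes in each table.

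NEAT1 was the member called in every table. Its window from 65424326 to 65424656 was at -0.34 with sgMETTL16-1 (FDR = 0.0141) and -0.71 with sgMETTL16-2 (FDR = 8.91e-10) in the authors' deposited replicate 1 tables. In replicate 2 a longer window over the same place was at -0.43 (FDR = 1.26e-09) and -0.29 (FDR = 2.14e-04) in the authors' deposited tables. Another NEAT1 window, 65425764 to 65426034, was called with sgMETTL16-2 in replicate 1 alone, at -1.46 (FDR = 7.59e-04) in the authors' deposited table. SNHG1, a host gene of small nucleolar RNAs, was called in 3 tables, at -1.29 with sgMETTL16-1 in replicate 2 and, for sgMETTL16-2, at -0.77 and -1.14 in the authors' deposited tables. TUG1 was called in replicate 1 alone, at -0.48 with sgMETTL16-1 and in 3 windows with sgMETTL16-2 at -1.59, -1.31 and -1.48, per the authors' deposited tables. GAS5 (-0.47), SNHG3 (-0.95) and ZFAS1 (-0.41) were each called lower in 1 of the authors' deposited tables. The called windows of SNHG1 were not enriched (enrichment FDR = 0.716, 0.261 and 0.574, in the order above) in the authors' deposited tables. Those of GAS5 (0.146) and SNHG3 (0.201) and the TUG1 window at -1.48 (0.0617) were not enriched either. All other called windows of the list were enriched.

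Genes of 13 proteins, known to bind MALAT1 or to read or write m6A, were called in both directions. Lower calls fell on 3, 1, 2 and 1 members and higher calls on 0, 2, 0 and 2. By window, 3.61%, 1.52%, 2.41% and 1.79% of the list were called lower, beside 0.281%, 0.167%, 0.965% and 0.149% of all windows. Higher calls in replicate 2 took 3 of 66 windows with sgMETTL16-1 and 3 of 56 with sgMETTL16-2, beside 0.583% and 0.586% of all windows. In replicate 1 they took 0 of 83 with either guide, beside 0.0743% and 0.875%. RBMX, a nuclear protein that binds m6A-opened structures, had the largest called change, -1.97 with sgMETTL16-1 (FDR = 7.94e-21) and -2.36 with sgMETTL16-2 (FDR = 1.00e-27) in the authors' deposited replicate 1 tables. In replicate 2 RBMX had no called window with sgMETTL16-1 and no window at all with sgMETTL16-2. HNRNPC, the reader of the m6A switch in MALAT1, was called once, at -0.35 with sgMETTL16-2 in replicate 1 (FDR = 0.0135) in the authors' deposited table. YTHDC1, the nuclear YTH reader, was also called once, at -0.71 with sgMETTL16-1 in replicate 1 (FDR = 0.00513) in the authors' deposited table. HNRNPA2B1 was called lower in 3 tables, at -0.22 and -0.41 with sgMETTL16-1 and -0.63 with sgMETTL16-2, and another of its windows was called higher in both replicate 2 tables, at 0.25 and 0.17, in the authors' deposited tables. U2AF2, a splicing factor, was called higher in replicate 2 with both guides, where the authors' deposited tables gave 0.61 and 0.49 for sgMETTL16-1 and 0.39 and 0.35 for sgMETTL16-2. METTL16 itself had no call.

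As a check of the label, all 8 myeloid markers looked for (CD33, CD14, LYZ, MPO, ITGAM, CSF1R, SPI1 and CEBPA) had windows in each table; markers of other cells are not reported here. A window shows that an RNA was covered and not how much of it there was.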

How the data were processed

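The 12 libraries are input and m6A IP of polyadenylated RNA from NOMO-1 cells. Per the submitters' processing notes, STAR aligned the reads, and the build was GRCh38. The peak caller, its annotation, the reads per library and the sgNS libraries behind each table are not stated in the sources used here, so depth is unknown. The authors deposited 4 tables, which the labels tie to a guide and a replicate number. Per the file headers they hold a p-value of IP over input, a fold enrichment ratio, a log2 fold change of the difference, and log10 p-values and FDRs. No value per library was used, so no spread between replicates is given.

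MALAT1 and the gene lists were chosen with earlier results of these data known. Calls are the authors' FDRs under 0.05. The set of windows over which they were adjusted is not known: Benjamini-Hochberg adjustment of the deposited p-values over each table gave values that differed by up to 0.197 to 0.224 in log10. The deposited p-values of the difference act as one-sided. Coordinates start from 0 in the tables and from 1 here. Windows of 2 tables were paired 1 to 1 at an overlap of at least 0.5 on either side, and bases were also compared one by one. Named genes were MALAT1, the 5 genes nearest by their 4 medians, list members with a call, and genes with a base called in all 4 tables, the last chosen after their values were seen. Alternatives were a stricter FDR (0.01), a minimum size of 1 in log2, enriched windows only, overlaps of 0.8 and 0.25, leaving out a replicate, a doubled p-value, and a shift by the median of all enriched windows with a normal approximation. For the median log2 fold change, a mean weighted by window length was also an alternative. Benjamini-Hochberg adjustment of the deposited p-values and the alternatives for shared bases were added after seeing the data. Python 3.11.15, pandas 2.3.3, numpy 2.4.6 and scipy 1.17.1 were used, and the steps were tested on simulated data.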

Additional observations from a re-analysis of the deposited data

How the results depend on the processing

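Of 100 alternative values for 23 results, 81 counted as unchanged, 19 as moved and 0 as reversed. The median of sgMETTL16-1 in replicate 2 changed sign over enriched windows and was counted as moved. Unchanged meant within 1.5 times the count or within the spread between the tables of a guide. Part of the 81 was fixed in advance, since a count of 0 cannot rise under a stricter setting. The spread was also wide for the median of sgMETTL16-2, at 0.4606. A change from -0.0016 to -0.39 over enriched windows in replicate 2 fell within it. Lower calls on MALAT1 were 0 in each table with a minimum size of 1 in log2, as were the bases called lower in all 4 tables, since no called window reached that size. Enriched windows with a fold of at least 2 numbered 0 in each table. Leaving out a replicate gave 1 to 2 windows called lower for sgMETTL16-1 and 1 to 4 for sgMETTL16-2, and 121 to 1650 bases called lower in the tables left; the 1650 bases are those without replicate 2. For sgMETTL16-1 in replicate 1 the median over enriched windows was -0.62, and the mean weighted by length was -0.50. In replicate 2 the median was 0.0048 over enriched windows and -0.39 after the shift, and the mean weighted by length was -0.0582. The sign of the replicate 2 median thus rests on which windows count, and the cause was not tested. No paired analysis was possible because the tables hold the authors' comparisons and no values per library.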
